A study of Homo sapiens with 18 samples.

Results

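The solute carriers are the large superfamily of membrane proteins, named SLC, that move nutrients, ions, metals, vitamins and metabolites across the plasma membrane, the membranes of lysosomes and the Golgi, and the inner membrane of mitochondria. Their expressed members in macrophage-like THP-1 cells were chosen by level alone: protein-coding genes whose symbol starts with SLC and a digit, with a mean of at least 5 CPM (reads of a gene per 1000000 reads assigned to genes) over all 18 libraries. 188 of the 58051 genes in the files met this rule. They came from 512 genes with such a symbol, of which 377 were protein-coding and 353 of those had at least 1 count. Just inside the limit were SLC6A13 at 5.58 CPM, SLC16A13 at 5.63 CPM and SLC2A8 at 6.60 CPM, and just outside it SLC35G1 at 4.84 CPM, SLC4A3 at 4.54 CPM and SLC46A3 at 4.54 CPM. The other 189 protein-coding SLC genes lay under the limit, and 4 SLC-named genes above it that are not protein-coding, such as SLC9A3-AS1, were left out. 3 members carry the name without being transporters: SLC2A4RG, SLC4A1AP and SLC7A6OS, which are named after a neighbour or a partner. The mean level chose the members, so levels are given as a description. The rule itself uses no comparison between conditions, but a mean over all groups can be carried by the groups where a gene is high.

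THP-1 is an established human monocytic leukaemia line. All cells were transduced with an MSCV retrovirus that also encodes GFP and were sorted for GFP, and all received PMA, a phorbol ester that drives macrophage-like differentiation, at 5 ng/ml for 48 h. The groups were NIC1 with IL-4, NIC1 unstimulated, DNMAML with IL-4, DNMAML unstimulated, IRES with IL-4 and IRES unstimulated, with 3 libraries each, 1 from each of experiments 1 to 3. NIC1 is the MYC-tagged NOTCH1 intracellular domain, the active form of the receptor, DNMAML is a dominant-negative Mastermind-like protein that blocks the Notch transcription complex, and IRES is the empty vector. IL-4 was given at 20 ng/ml for 3 h. Each construct was measured in transduced cells of a single line, and nothing in the labels says whether the experiments were separate transductions, so each p-value speaks of the spread between libraries, which may be technical.

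Amino acid exchangers of this superfamily supply arginine, cystine and leucine to macrophages, and zinc, iron and manganese carriers set how much of these metals reaches the cytosol or a phagosome. IL-4 is a cytokine that acts through its receptor and STAT6 and drives alternative activation of macrophages. Arginine uptake through CAT2, the product of SLC7A2, is known in mouse macrophages to feed arginase after IL-4.

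The 18 libraries held 12410668 to 15099788 counts in genes, of which the 188 members took between 1.15% and 1.30%. The experiment 3 libraries of DNMAML cells with IL-4 and of unstimulated IRES cells stood apart in detecting 25322 and 23179 genes, against at most 21557 in any other library, and results that rest on them are also given without them. The constructs and the cytokine left the traces that their labels imply. CISH, a feedback inhibitor induced by STAT factors, averaged 110 CPM with IL-4 and 2.25 CPM without it in NIC1 cells, and HES4, a Notch target, averaged 15.1 CPM in unstimulated NIC1 cells, 2.65 CPM in DNMAML cells and 3.41 CPM in IRES cells. NOTCH1 counts, which include the construct's own RNA, averaged 287, 152 and 188 CPM in the unstimulated NIC1, DNMAML and IRES cells. Of 8 monocyte and macrophage markers 7 averaged at least 1 CPM, with a summed level of 890 to 1319 CPM over libraries, although CD68 stayed between 0.705 and 1.12 CPM and CD14 between 3.32 and 5.75 CPM in the group means. T cell markers differed with the construct: their sum was 19.8 to 43 CPM in NIC1 libraries, 1.36 to 6.08 CPM in DNMAML libraries and 2.63 to 10.5 CPM in IRES libraries, nearly all from CD3D, with 2 of the 4 markers under 1 CPM. B cell markers, mostly CD79A, also lay higher in NIC1 libraries: their sum was 6.62 to 10.8 CPM there, 5.20 to 7.52 CPM in DNMAML libraries and 5.44 to 7.33 CPM in IRES libraries. Epithelial markers summed to 6.35 to 14 CPM, fibroblast markers to 74.2 to 152 CPM through 1 gene of the 3, COL1A1, and of the erythroid markers HBB was at 0. In these bulk libraries a change in the share of cells that make an RNA and a change in RNA per cell cannot be told apart.

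Members' mean levels ran from 5.58 to 628 CPM with a median of 37.2 CPM. 26 of them lay over 100 CPM and 22 under 10 CPM, and the 10 highest took 32.7% of all member counts. Per kilobase of exon the median was 6.53 CPM per kb, and all 188 members were among the 15037 genes tested. The highest per kilobase were the ADP/ATP carriers of the mitochondrial inner membrane, SLC25A6 at 292 CPM per kb and SLC25A5 at 202 CPM per kb. Both have near-identical processed copies elsewhere in the genome, and SLC25A6 lies in the pseudoautosomal region, so their levels are uncertain. They were followed by SLC39A7 at 103 CPM per kb, which releases zinc from the endoplasmic reticulum, by the leucine exchanger SLC7A5 at 102 CPM per kb and by the phosphate importer SLC20A1 at 88.7 CPM per kb. The glutamine carriers SLC38A2 and SLC38A1 had 64.2 and 48.8 CPM per kb, and the glutamine exchanger SLC1A5 had 40.7 CPM per kb.

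**Figure D1:**
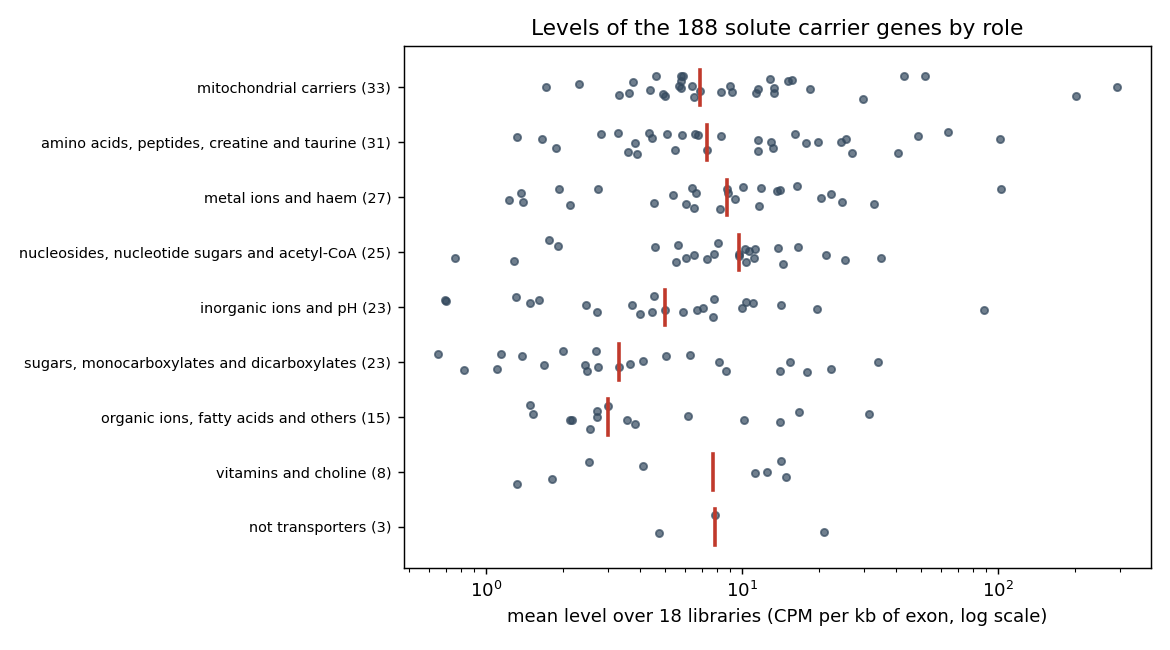
Mean level of each of the 188 solute carrier genes over 18 libraries, in CPM per kb of exon on a log axis, by role, with the number of members in brackets. Points are genes (vertical spread is only for visibility) and red lines are medians, which run from 2.99 CPM per kb for carriers of organic ions, fatty acids and others to 9.80 CPM per kb for carriers of nucleosides and nucleotide sugars.

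By family, 33 members were mitochondrial carriers, 31 carried amino acids, peptides, creatine or taurine, 27 metal ions or haem, 25 nucleosides, nucleotide sugars or acetyl-CoA, 23 inorganic ions, 23 sugars, monocarboxylates or dicarboxylates, 15 organic ions, fatty acids or other solutes, and 8 vitamins or choline. Median levels were 9.80 CPM per kb for the nucleotide sugar group, led by SLC35B2 at 34.9 CPM per kb, and 8.78 CPM per kb for metals. They were 7.71 CPM per kb for vitamins, where the choline carrier SLC44A2 reached 14.8 CPM per kb, 7.33 CPM per kb for amino acids, 6.87 CPM per kb for mitochondrial carriers and 5.01 CPM per kb for inorganic ions. Lowest were sugars and monocarboxylates at 3.31 CPM per kb, although the lactate exporter SLC16A3 reached 34.1 CPM per kb, and organic ions at 2.99 CPM per kb, led by SLC17A5, the sialic acid exporter of lysosomes, at 31.4 CPM per kb.

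Most members kept a similar level in all 6 groups. The highest group mean was 1.22 times the lowest in the median member, and over 2 times in 19 members (10.1%), against 4.78% of the 11124 tested genes at 5 CPM or more. The variance of log2 CPM over the 18 libraries was split into parts lying between IL-4 and unstimulated, between constructs and between experiments, as a description of each gene. The median member had 8.73% between IL-4 and unstimulated libraries, 12% between constructs and 31% between experiments, where the medians over genes at 5 CPM or more were 5.59%, 11.3% and 33%. IL-4 held over 50% of the variance in 24 members (12.8%, against 7.69% of tested genes at 5 CPM or more). Among them were the myo-inositol carrier SLC5A3 at 98.1% and the zinc importer SLC39A8 at 97.6%. SLC22A4 is counted there at 89.3%, but it met the level rule only through its IL-4 libraries and is no support. The construct held over 50% in 15 members (7.98%, against 5.91%), with SLC38A1 at 83.7%, SLC12A8 at 83.3% and SLC2A6 at 78.5%. That count includes SLC6A13 at 63.8% and SLC2A5 at 56.0%, which met the level rule through only some groups and are no support. The experiment held over 50% in 53 members (28.2%, against 30.3%), the ADP/ATP carrier SLC25A6 at 84.3% and the phagosomal metal exporter SLC11A1 at 82.4% among them. Experiment 2 stood furthest from the mean of experiments 1 and 3 in SLC2A5, by -1.30 on the log2 scale, and in SLC20A1, by 1.05.

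**Figure D2:**
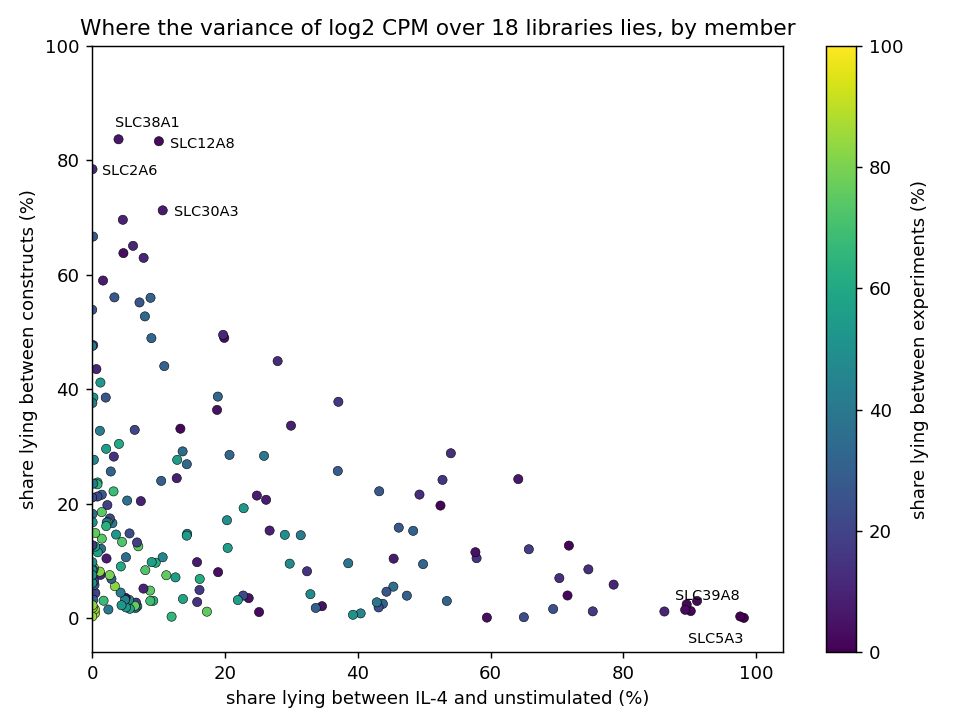
Share of the variance of log2 CPM over 18 libraries that lies between IL-4 and unstimulated libraries (horizontal axis, percent) and between constructs (vertical axis, percent) for each of the 188 members, coloured by the share that lies between experiments. SLC5A3 (98.1%) and SLC39A8 (97.6%) lie at the right end, and SLC38A1 (83.7%) and SLC12A8 (83.3%) at the top.

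In the test that left the pairing by experiment aside, IL-4 for 3 h changed a small share of the carriers, and most of those called rose. With the experiment as a block more were called and more of them fell, as given below. By edgeR's quasi-likelihood test, with a Benjamini-Hochberg adjusted p under 0.05 over 15037 genes, 11 members rose and 1 fell in NIC1 cells, 13 rose and 2 fell in DNMAML cells, and 10 rose and 1 fell in IRES cells. The background was 2.25% of all tested genes rising and 0.798% falling in NIC1 cells, 2.15% and 1.12% in DNMAML cells, and 2.02% and 0.911% in IRES cells. The members' rising shares were 5.85% in NIC1, 6.91% in DNMAML and 5.32% in IRES cells, where 2.54%, 2.36% and 2.22% of the tested genes at 5 CPM or more rose. SLC22A4 is counted here and in the list below although it met the level rule only through its IL-4 libraries, so its call is no support. Over all members the median change was 0.00, -0.03 and -0.01 on the log2 scale. 10 members rose in all 3 constructs: SLC5A3, SLC39A8, SLC7A2, SLC7A6, SLC35E3, SLC22A4, SLC7A5, SLC7A11, SLC22A16 and SLC45A3. Of these, SLC5A3, SLC39A8, SLC7A2, SLC7A5, SLC35E3 and SLC7A6 kept the call in all 3 constructs whichever 1 library was left out, and also without the 2 libraries that stood apart. Without those 2 libraries, calls were lost for SLC43A2 in NIC1 cells (adjusted p = 0.082), for SLC43A2, SLC45A3, SLC45A4, SLC50A1 and SLC26A2 in DNMAML cells (0.0525 to 0.143), and for SLC45A3 and SLC22A16 in IRES cells (0.158 and 0.0753). All fits with libraries left out, here and below, set the pairing by experiment aside. The share of all tested genes that rose in all 3 constructs is not given here, so the 10 members cannot be set beside it.

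The experiment numbers pair the libraries, and with the experiment as a block 29 members rose and 10 fell in NIC1 cells, 23 rose and 17 fell in DNMAML cells, and 23 rose and 15 fell in IRES cells. The background with the block was 5.13% rising and 3.66% falling in NIC1, 5.01% and 4.94% in DNMAML, and 4.87% and 4.18% in IRES cells. In that fit 20 members rose and 6 fell in all 3 constructs, and no member was called in opposite directions in any of the constructs. The 20 include SLC22A4, whose call is no support. The share of all tested genes called in all 3 constructs is not given here, so these counts cannot be set beside it.

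**Figure D3:**
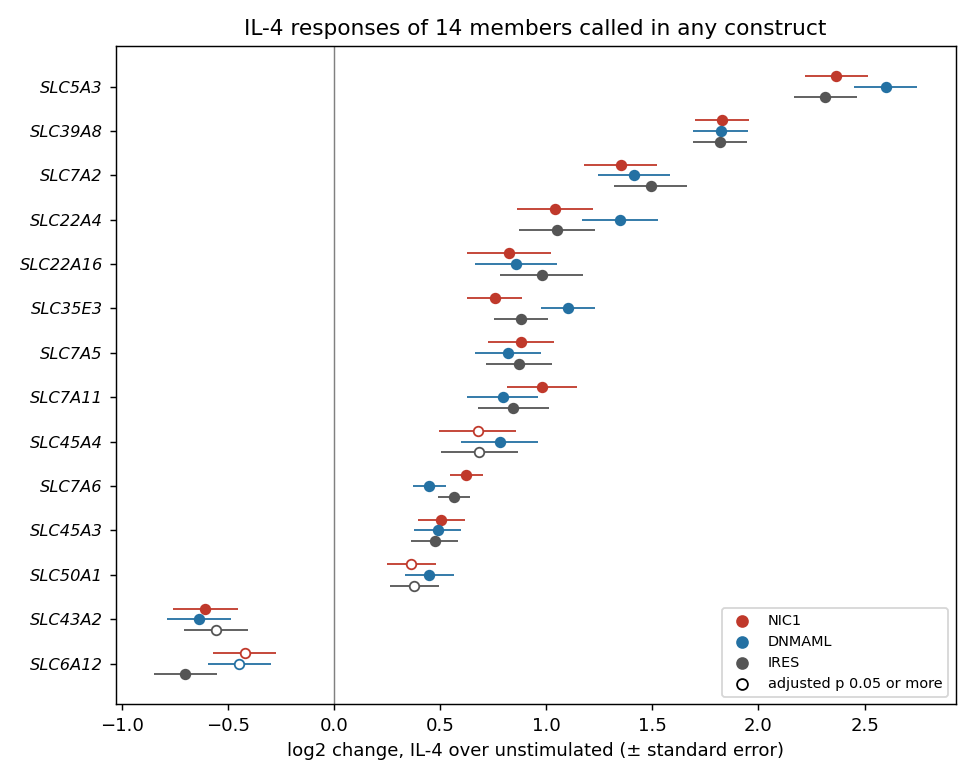
Log2 change with IL-4 over unstimulated, with its standard error, in NIC1, DNMAML and IRES cells for 14 members called in any of the 3 responses by edgeR's quasi-likelihood test without the block, with a change of at least 0.4 in 1 of them. Filled points passed an adjusted p of 0.05, and the changes run from 2.60 for SLC5A3 in DNMAML cells to -0.70 for SLC6A12 in IRES cells. SLC22A4 is drawn although it met the level rule only through its IL-4 libraries, so its filled points are no support.

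Among carriers of sugars, polyols and monocarboxylates, SLC5A3 stood far above the rest. SLC5A3 (ENSG00000198743, GRCh38 chr21:34073570-34106262, plus strand) couples myo-inositol to sodium and supplies cells with this osmolyte and precursor of inositol phospholipids. In NIC1 cells it had 321, 344 and 363 CPM with IL-4 in experiments 1 to 3, against 58.3, 79.0 and 61.9 CPM unstimulated. In DNMAML cells it had 367, 350 and 406 CPM with IL-4 and 50.03, 75.3 and 60.3 CPM unstimulated. In IRES cells it had 373, 301 and 351 CPM with IL-4 and 60.5, 76.6 and 68.8 CPM unstimulated. Every IL-4 library lay above every unstimulated library, and the 3 constructs overlapped. The change was 2.37 ± 0.15 (SE) in NIC1, 2.60 ± 0.15 in DNMAML and 2.32 ± 0.15 in IRES cells on the log2 scale, with quasi-likelihood adjusted p of 7.57e-08, 2.40e-08 and 1.00e-07 (n = 3 libraries per group). SLC5A3 lies within the span of MRPS6, a mitochondrial ribosomal protein gene on the same strand (chr21:34073224-34143034), and the counting may have left reads of shared exons ambiguous. MRPS6 itself averaged 117, 122 and 112 CPM with IL-4 in NIC1, DNMAML and IRES cells, against 41.4, 36.7 and 33.6 CPM unstimulated, and rose by 1.50, 1.73 and 1.74 on the log2 scale, so the split of reads between the pair is uncertain.

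SLC45A3, a member of a family of sugar transporters, rose by 0.51, 0.49 and 0.48 in NIC1, DNMAML and IRES cells on the log2 scale, with adjusted p of 0.016, 0.0202 and 0.0251. The call was lost when certain libraries were left out: unstimulated 1 or 3 in each construct, and also IL-4 library 2 in NIC1, 2 or 3 in DNMAML, or 1 or 2 in IRES cells, with an adjusted p of up to 0.115. Its relative SLC45A4 had a change of 0.78 in DNMAML cells (adjusted p = 0.0231), where leaving out unstimulated library 2 or 3 or IL-4 library 1 or 3 ended the call. It changed by 0.68 in NIC1 and 0.69 in IRES cells (adjusted p = 0.0608 and 0.0574), which passed with the block (adjusted p = 0.000271 and 0.000173). SLC50A1, the SWEET-family sugar carrier, rose by 0.45 in DNMAML cells (adjusted p = 0.0444), a call kept only without unstimulated library 1. With the block it also rose in NIC1 cells by 0.36 and in IRES cells by 0.38. The neuronal-type glucose importer SLC2A3 averaged 114 CPM with IL-4 and 93.9 CPM unstimulated in NIC1 cells, a log2 change of 0.27 (adjusted p = 0.265, and 0.02 with the block), and it rose with the block in the other constructs too. SLC16A6, of the monocarboxylate carrier family, fell with the block by 0.91, 1.07 and 1.07 in NIC1, DNMAML and IRES cells, to group means of 9.30, 5.39 and 5.77 CPM with IL-4, against 17.2, 11 and 11.9 CPM unstimulated. Its adjusted p without the block was 0.484, 0.332 and 0.341. It overlaps ARSG, whose log2 changes were 0.17, -0.02 and -0.08.

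Of the 27 carriers of metals and haem, SLC39A8 alone rose in the test without the block in each construct. SLC39A8 (ENSG00000138821, chr4:102251041-102431258, minus strand) encodes ZIP8, an importer of zinc and manganese. With IL-4 it had 102, 91.2 and 106 CPM in NIC1 cells, 93.0, 90.0 and 96.3 CPM in DNMAML cells and 98.1, 85.9 and 96.6 CPM in IRES cells. The unstimulated libraries had 28.6, 28.5 and 27 CPM in NIC1, 25.9, 32.9 and 20.2 CPM in DNMAML and 27.3, 28.1 and 24.1 CPM in IRES cells. No IL-4 library overlapped an unstimulated library, and the changes of 1.83 ± 0.13, 1.82 ± 0.13 and 1.82 ± 0.13 (SE, log2) in NIC1, DNMAML and IRES cells lay within 1 standard error of each other. Adjusted p was 2.10e-07, 2.67e-07 and 2.74e-07.

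Promoters of the 2 members with the largest IL-4 changes, of the 1 rising member that held a STAT6-type pair and of SLC12A8, called in all 4 comparisons of NIC1 with the other constructs, are shown to set their letters beside the values, as 300 bases from RefSeq on GRCh38.p14, 250 before and 50 from the start of transcription. Capitals mark TGGGAA, the core letters that RBPJ, the DNA-binding partner of Notch, is known to read, or TTC and GAA separated by 4 bases, a spacing known for STAT6. SLC39A8 has 3 listed promoters and SLC4A7 has 2, and the windows with a match are shown.
SLC5A3, chr21:34073328-34073627, plus strand: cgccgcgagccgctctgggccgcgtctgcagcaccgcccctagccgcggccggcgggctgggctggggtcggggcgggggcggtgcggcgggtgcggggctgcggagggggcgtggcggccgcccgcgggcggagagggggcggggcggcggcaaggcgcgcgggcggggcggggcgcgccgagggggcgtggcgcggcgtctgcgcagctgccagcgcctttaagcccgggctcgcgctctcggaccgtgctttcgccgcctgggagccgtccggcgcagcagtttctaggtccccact
SLC39A8, chr4:102345433-102345732, minus strand: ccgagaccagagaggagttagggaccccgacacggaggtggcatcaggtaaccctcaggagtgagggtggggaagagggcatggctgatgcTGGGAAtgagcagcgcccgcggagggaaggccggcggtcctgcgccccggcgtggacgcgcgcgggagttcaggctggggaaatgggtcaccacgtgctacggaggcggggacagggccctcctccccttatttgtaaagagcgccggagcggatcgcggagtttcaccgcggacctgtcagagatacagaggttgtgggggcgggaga
SLC4A7, chr3:27456729-27457028, minus strand: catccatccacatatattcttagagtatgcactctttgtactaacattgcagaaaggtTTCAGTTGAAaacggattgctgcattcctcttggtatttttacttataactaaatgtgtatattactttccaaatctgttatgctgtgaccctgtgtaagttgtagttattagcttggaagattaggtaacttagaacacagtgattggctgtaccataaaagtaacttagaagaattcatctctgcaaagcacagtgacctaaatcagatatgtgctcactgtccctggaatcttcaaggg
SLC12A8, chr3:125211350-125211649, minus strand: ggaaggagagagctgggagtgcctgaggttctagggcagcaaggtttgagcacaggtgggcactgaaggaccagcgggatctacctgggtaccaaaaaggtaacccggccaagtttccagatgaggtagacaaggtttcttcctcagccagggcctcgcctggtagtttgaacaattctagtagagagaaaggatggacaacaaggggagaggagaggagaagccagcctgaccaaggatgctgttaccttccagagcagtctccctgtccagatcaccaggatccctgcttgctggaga

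The SLC5A3 and SLC12A8 windows hold none of the motifs searched. The SLC39A8 window holds TGGGAA at base 92, and the SLC4A7 window holds the TTC and GAA pair at base 59. 154 of the 188 members matched the RefSeq promoter table, with 235 promoters. TTC and GAA at 4 bases occurred in 3.83% of these promoters and in 6.44% of all 35116 promoters, the same pair at 3 bases in 7.23% and 7.66%, and TGGGAA on either strand in 19.6% and 24%. Of the 20 members that rose in all constructs with the block, 15 had a promoter in the table: 1 held the pair at 4 bases, none the pair at 3 bases and 7 held TGGGAA. A match is a string of letters and not a measured site.

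Amino acid carriers made up 4 of the rising members in each construct. SLC7A2 (ENSG00000003989, chr8:17497088-17570573, plus strand) encodes CAT2, which imports arginine, lysine and ornithine. It had 41.2, 29.7 and 37.2 CPM with IL-4 in NIC1 cells, against 14.5, 15.4 and 12.4 CPM unstimulated. In DNMAML cells it had 52.9, 37.6 and 46.4 CPM with IL-4 and 17.4, 16.8 and 17.1 CPM unstimulated, and in IRES cells 54.5, 33.9 and 37.8 CPM with IL-4 and 15.9, 14.8 and 14.2 CPM unstimulated. In each construct the IL-4 library of experiment 2 was the lowest of its 3, and all IL-4 libraries exceeded all unstimulated ones. SLC7A2 rose by 1.35 ± 0.17, 1.42 ± 0.17 and 1.49 ± 0.17 (SE, log2) in NIC1, DNMAML and IRES cells, with adjusted p of 0.000127, 6.46e-05 and 4.00e-05.

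SLC7A5 (ENSG00000103257, chr16:87830023-87869488, minus strand) encodes LAT1, which exchanges leucine and other large neutral amino acids and pairs with the SLC3A2 heavy chain. It had 615, 696 and 632 CPM with IL-4 in NIC1 cells and 331, 386 and 336 CPM unstimulated, and 603, 712 and 555 CPM with IL-4 in DNMAML cells and 305, 414 and 340 CPM unstimulated. In IRES cells it had 518, 689 and 596 CPM with IL-4 and 265, 406 and 313 CPM unstimulated. Groups did not overlap within a construct, and experiment 2 was the highest in every group. SLC7A5 rose by 0.88 ± 0.16, 0.82 ± 0.16 and 0.87 ± 0.16 (SE, log2) in NIC1, DNMAML and IRES cells, with adjusted p of 0.00303, 0.00531 and 0.00323. Its heavy chain SLC3A2 averaged 146, 142 and 137 CPM with IL-4 in NIC1, DNMAML and IRES cells, against 127, 126 and 118 CPM unstimulated, and rose with the block in NIC1 and IRES cells by 0.20 and 0.21 (adjusted p = 0.0272 and 0.0209).

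SLC7A11 (ENSG00000151012, chr4:138164097-138242349, minus strand) encodes xCT, which imports cystine in exchange for glutamate and so supplies glutathione synthesis. It had 88.2, 88.4 and 75.2 CPM with IL-4 in NIC1 cells, against 38.3, 47 and 42.6 CPM unstimulated. It had 47.6, 51.1 and 53.5 CPM with IL-4 in DNMAML cells and 23.2, 31.4 and 33.2 CPM unstimulated, and 49.1, 61.9 and 62.6 CPM with IL-4 in IRES cells and 23.4, 34.3 and 38.8 CPM unstimulated. Within each construct the IL-4 libraries lay above the unstimulated ones, and the NIC1 libraries with IL-4 were the highest of all 18. SLC7A11 rose by 0.98, 0.80 and 0.85 on the log2 scale in NIC1, DNMAML and IRES cells (adjusted p = 0.00214, 0.0118 and 0.00733), and in DNMAML cells the call was lost without unstimulated library 1 or IL-4 library 3 (adjusted p up to 0.0677). SLC7A6, another exchanger of the same family (y+LAT2), rose by 0.62, 0.45 and 0.57 in NIC1, DNMAML and IRES cells, with adjusted p of 8.89e-05, 0.002 and 0.000238. The gene SLC7A6OS, which overlaps it, had changes of 0.02, 0.05 and 0.02.

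**Figure D4:**
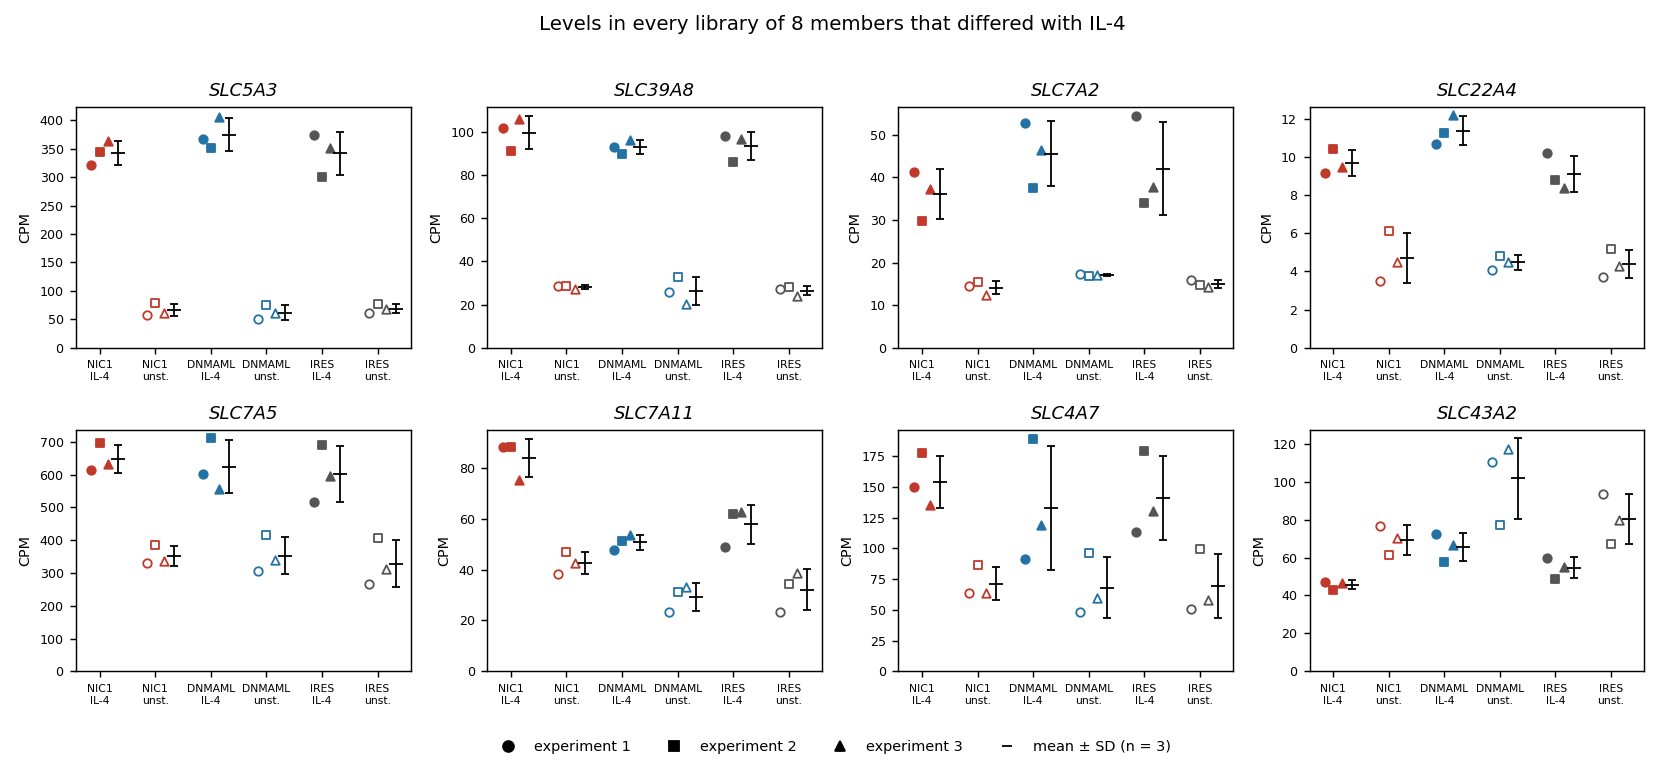
CPM in every library (symbols give the experiment) with the mean and SD of 3 libraries, for 8 members, filled for IL-4 and open for unstimulated, with the vertical axis from 0. SLC5A3, SLC39A8, SLC7A2, SLC22A4, SLC7A5 and SLC7A11 show no overlap between IL-4 and unstimulated libraries of a construct, while SLC4A7 varies with the experiment. SLC22A4 met the level rule only through its IL-4 libraries, so its lack of overlap is no support.

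Few carriers fell in the test without the block. SLC43A2, the LAT4 facilitator of branched-chain amino acids, had 47.3, 43 and 46.7 CPM with IL-4 in NIC1 cells, against 76.9, 61.2 and 70.2 CPM unstimulated. On the log2 scale it fell by 0.61 (adjusted p = 0.0389) in NIC1 cells and by 0.63 (adjusted p = 0.0265) in DNMAML cells, and its change in IRES cells was -0.55 (adjusted p = 0.0646, and 2.04e-05 with the block). The call in NIC1 cells was kept only without unstimulated library 2, and that in DNMAML cells only without unstimulated library 2 or IL-4 library 1. SLC6A12, a betaine and GABA carrier, averaged 7.10 ± 0.683 CPM with IL-4 and 11.5 ± 1.36 CPM unstimulated in IRES cells (SD, n = 3 each). It fell there by 0.70 (adjusted p = 0.0127, lost without unstimulated library 2 or IL-4 library 2 or 3), with a change of -0.42 in NIC1 cells (adjusted p = 0.226, and 0.0832 with the block) and of -0.45 in DNMAML cells (adjusted p = 0.161, and 0.0481 with the block). With the block, the glutamine carrier SLC38A2 fell in all constructs by 0.19 to 0.27, the lysosomal amino acid exporter SLC36A1 by 0.27 to 0.40, the purine nucleobase carrier SLC43A3 by 0.26 to 0.31, and SLC25A40, a carrier of glutathione into mitochondria, by 0.31 to 0.34. The glutamate importer SLC1A3 fell with the block in NIC1 and DNMAML cells by 0.54 and 0.49 (adjusted p = 0.025 and 0.0436), to means of 10.1 and 9.22 CPM with IL-4, against 14.7 and 13.1 CPM unstimulated. The lysosomal histidine and peptide carrier SLC15A4 averaged 28.1 CPM with IL-4 and 38.4 CPM unstimulated in DNMAML cells and fell there with the block by 0.45 (adjusted p = 0.00745).

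The organic cation carriers SLC22A4 and SLC22A16 were at low levels. SLC22A4 encodes OCTN1, which carries ergothioneine, and had 9.16, 10.4 and 9.45 CPM with IL-4 in NIC1 cells, against 3.50, 6.13 and 4.48 CPM unstimulated. In DNMAML cells it had 10.7, 11.2 and 12.2 CPM with IL-4 and 4.06, 4.83 and 4.51 CPM unstimulated, and in IRES cells 10.2, 8.79 and 8.39 CPM with IL-4 and 3.70, 5.19 and 4.29 CPM unstimulated. All IL-4 libraries exceeded all unstimulated ones, and since every unstimulated group averaged under 5 CPM, the gene entered the set through its IL-4 libraries. Its log2 differences of 1.04 ± 0.18, 1.35 ± 0.18 and 1.05 ± 0.18 (SE) in NIC1, DNMAML and IRES cells are therefore a description, with no test given. P4HA2, which overlaps it on the other strand, had changes of 0.39, 0.13 and 0.21 that did not pass. SLC22A16, a carnitine carrier, averaged 9.52, 11.8 and 11.3 CPM with IL-4 in NIC1, DNMAML and IRES cells, against 5.37, 6.50 and 5.71 CPM unstimulated, and rose by 0.82, 0.86 and 0.98. Its adjusted p of 0.0274 in NIC1 cells held only when unstimulated library 1 was left out, that of 0.0186 in DNMAML cells only without unstimulated library 1 or IL-4 library 3, and that of 0.00781 in IRES cells was lost without unstimulated library 3.

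SLC35E3, of the nucleotide sugar carrier family and of no settled substrate, had 20.1, 14.8 and 18 CPM with IL-4 in NIC1 cells and 10.7, 9.24 and 11.3 CPM unstimulated. It rose by 0.76, 1.10 and 0.88 in NIC1, DNMAML and IRES cells (adjusted p = 0.00222, 4.78e-05 and 0.00048). No other member of its group of 25 passed without the block. The sulfate carrier SLC26A2 rose by 0.27 in NIC1 cells (adjusted p = 0.0241) and by 0.28 in DNMAML cells (adjusted p = 0.0202), calls lost without unstimulated library 1 or 2 or IL-4 library 1 in NIC1 cells and without unstimulated library 2 or 3 or IL-4 library 2 in DNMAML cells. Its change in IRES cells was 0.17. None of the 33 mitochondrial carriers was called in any response without the block (2, 1 and 1 at an unadjusted p under 0.05 in NIC1, DNMAML and IRES cells by edgeR, and 0 by DESeq2), and none of the 8 carriers of vitamins or choline. At background shares of 2.25% rising and 0.798% falling in NIC1 cells, groups this small can lack calls without being unusual. With the block SLC25A40 fell in 3 responses, SLC25A33 rose in 2, SLC25A22 rose in 1, and the choline carriers SLC44A2 and SLC44A1 fell in 2 and 1.

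2 ion carriers that varied between experiments passed edgeR's test with the block and not without it. SLC4A7, the sodium bicarbonate cotransporter NBCn1, had 149, 177 and 135 CPM with IL-4 in NIC1 cells, against 63.7, 86.8 and 63.4 CPM unstimulated. It had 91.5, 189 and 119 CPM with IL-4 in DNMAML cells and 48.5, 95.9 and 59.6 CPM unstimulated, and 113, 179 and 130 CPM with IL-4 in IRES cells and 50.7, 99.1 and 58.2 CPM unstimulated. Experiment 2 was the highest in every group, and in DNMAML cells its unstimulated library exceeded the IL-4 library of experiment 1. The changes of 1.11, 0.97 and 1.02 in NIC1, DNMAML and IRES cells had adjusted p of 0.093, 0.164 and 0.141 without the block and 1.91e-05, 9.37e-05 and 4.37e-05 with it. SLC4A7 also passed by DESeq2 without a block (adjusted p = 0.00849, 0.0354 and 0.0225). SLC20A1, the phosphate importer PiT-1, had 625, 1136 and 515 CPM with IL-4 in NIC1 cells, against 405, 807 and 349 CPM unstimulated. It was higher with IL-4 in 3 of 3 experiments in each construct, and with the block it rose by 0.56, 0.73 and 0.65 in NIC1, DNMAML and IRES cells (adjusted p = 0.00699, 0.000932 and 0.00249), against adjusted p of 0.957, 0.802 and 0.914 without it.

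A list of 25 carriers known from macrophages held 2 rising members in each construct without the block, SLC7A2 and SLC7A11, and 1 falling. The falling member was SLC43A2 in NIC1 and DNMAML cells and SLC6A12 in IRES cells. Over all tested genes 2.25%, 2.15% and 2.02% rose and 0.798%, 1.12% and 0.911% fell in NIC1, DNMAML and IRES cells. These counts of 1 and 2 genes are too few to compare with those shares. Its median change was -0.09, -0.11 and -0.03 on the log2 scale, where the median over all tested genes was -0.01, -0.01 and 0.00. Among those that did not pass was SLC11A1, the NRAMP1 metal exporter of phagosomes, with 13.3 CPM with IL-4 and 16.6 CPM unstimulated in NIC1 cells. Of 10 amino acid carriers known as targets of the stress factor ATF4, SLC7A5 and SLC7A11 rose in each construct without the block, where the share rising over all tested genes was 2.25% in NIC1, 2.15% in DNMAML and 2.02% in IRES cells, and none fell. With the block 6, 3 and 4 rose in NIC1, DNMAML and IRES cells, and SLC38A2 fell in each. The shares over all tested genes with the block were 5.13%, 5.01% and 4.87% rising and 3.66%, 4.94% and 4.18% falling. The list's median change was 0.25, 0.18 and 0.21. The glutamine exchanger SLC1A5 in that list averaged 149, 142 and 149 CPM with IL-4 in NIC1, DNMAML and IRES cells, against 123, 122 and 128 CPM unstimulated, and rose with the block in NIC1 cells (adjusted p = 0.0232). A further list held 33 tested carriers and partner proteins whose symbols do not start with SLC and a digit. Among them the magnesium carrier NIPA1 rose by 1.24, 1.11 and 1.17 and the lysosomal cholesterol exporter NPC1 by 1.19, 0.96 and 0.97 in NIC1, DNMAML and IRES cells. How many of the 33 were called is not given here.

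No member's IL-4 response passed the test of a difference between constructs, which does not show that the responses were equal. The difference in response between NIC1 and IRES cells ran from -0.24 to 0.28 on the log2 scale over the 188 members, and that between DNMAML and IRES cells from -0.43 to 0.37. By edgeR's quasi-likelihood test 0 members passed in both, 0 had an unadjusted p under 0.05 in either, and 0 passed with the block or by DESeq2. The background was 0% of the 15037 genes, also with the block.

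NIC1 and DNMAML, which act in opposite directions on Notch signalling, differed in few carriers without the block. In unstimulated cells 3 members were higher and 1 lower in NIC1 than in DNMAML cells, where 1.04% of all tested genes were higher and 0.612% lower. With IL-4, 5 members were higher and 1 lower, where the background was 1.08% higher and 0.359% lower. DESeq2 called 10 members unstimulated and 12 with IL-4. Its share over all tested genes is not given here, so these 2 counts cannot be set beside the edgeR backgrounds. With the experiment as a block 21 members were higher and 24 lower in unstimulated NIC1 cells (background 7.37% and 6.48%), and 29 higher and 19 lower with IL-4 (background 7.30% and 5.29%). The members' shares without the block were 1.60% higher and 0.532% lower unstimulated, and 2.66% higher and 0.532% lower with IL-4, which are 1 to 5 genes each. With the block they were 11.2% higher and 12.8% lower unstimulated, and 15.4% higher and 10.1% lower with IL-4, and 18 members were higher and 14 lower in both conditions. The share of all tested genes called in both conditions is not given here. The backgrounds also include genes under 5 CPM, while the members were chosen at 5 CPM or more. Shares among tested genes at that level are not given here, so these comparisons are not matched for level. The counts with the block include SLC6A13 as higher and SLC2A5 as lower, which met the level rule through only some groups and are no support. Across the same libraries the 8 monocyte and macrophage markers summed to 890 to 1170 CPM in NIC1 and 1103 to 1296 CPM in DNMAML cells unstimulated. With IL-4 the sums were 925 to 1144 and 1121 to 1319 CPM. Of the 8, ITGAM was lower in NIC1 cells by 0.78 unstimulated and 0.57 with IL-4 on the log2 scale, and differences of the others are not given here. The T cell marker CD3D was higher by 3.80 and 3.88. The B cell marker CD79A differed by 0.41 and 0.52 (adjusted p = 0.296 and 0.19, and 0.0679 and 0.0257 with the block). The part of these markers in the carriers' differences was not tested.

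SLC12A8 differed most firmly with the construct. SLC12A8 (ENSG00000221955, chr3:125082636-125212864, minus strand) belongs to the family of cation-chloride cotransporters and has been described in mouse as a carrier of nicotinamide mononucleotide. It had 40.5, 46.4 and 43.7 CPM in NIC1 cells with IL-4, against 21.9, 22.3 and 15.9 CPM in DNMAML cells and 22.9, 25.9 and 25.3 CPM in IRES cells. Unstimulated, it had 51.5, 56.9 and 52.6 CPM in NIC1 cells, 24, 27.6 and 22.4 CPM in DNMAML cells and 27.7, 35.4 and 32.9 CPM in IRES cells. All 6 NIC1 libraries lay above all 12 others. Between NIC1 and DNMAML cells the difference was 1.12 ± 0.13 (SE, log2) in both conditions, with adjusted p of 0.000327 unstimulated and 0.000388 with IL-4, kept in every leave-out.

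It was also the only member called between NIC1 and IRES cells without the block. There it was higher in NIC1 cells by 0.82 with IL-4 (adjusted p = 0.0141) and by 0.75 in unstimulated cells (adjusted p = 0.026). The unstimulated call was kept only without IRES library 2, and that with IL-4 was lost without IRES library 1 or 3 or NIC1 library 3 (adjusted p up to 0.147 and 0.109). Without the 2 libraries that stood apart the adjusted p was 0.0709 unstimulated and 0.00867 with IL-4. Over all tested genes 0.186% were higher and 0.0466% lower in unstimulated NIC1 than IRES cells, and 0.173% higher and 0.0266% lower with IL-4.

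**Figure D5:**
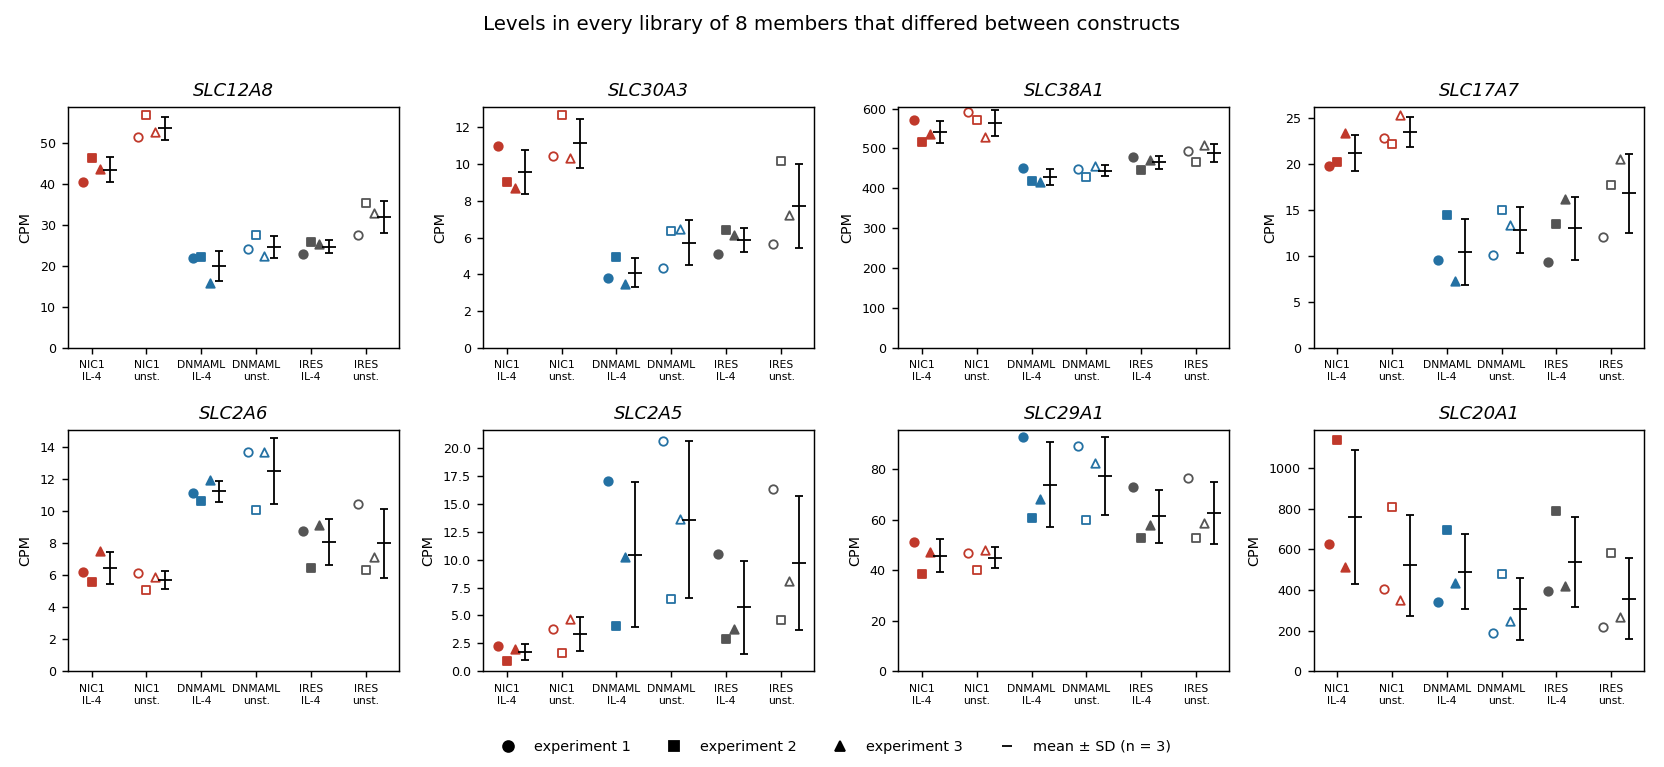
CPM in every library (symbols give the experiment) with the mean and SD of 3 libraries, for 8 members that differed between constructs in any fit, filled for IL-4 and open for unstimulated, with the vertical axis from 0. SLC12A8 in the 6 NIC1 libraries lies at 40.5 to 56.9 CPM, above all 12 others, while SLC2A5 and SLC20A1 vary with the experiment within each group.

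The vesicle carriers SLC30A3 and SLC17A7 were higher in NIC1 than DNMAML cells, SLC17A7 only in the fit with the block. SLC30A3, the ZnT3 carrier that loads zinc into synaptic vesicles, had 11, 9.03 and 8.71 CPM in NIC1 cells with IL-4, against 3.81, 4.97 and 3.47 CPM in DNMAML cells and 5.12, 6.39 and 6.13 CPM in IRES cells. Unstimulated, it had 10.4, 12.7 and 10.3 CPM in NIC1, 4.33, 6.37 and 6.47 CPM in DNMAML and 5.66, 10.2 and 7.25 CPM in IRES cells. NIC1 and DNMAML libraries did not overlap, and the gene averaged under 5 CPM in DNMAML cells with IL-4. It was higher in NIC1 than DNMAML cells by 1.23 with IL-4 (adjusted p = 0.00918, lost without DNMAML library 1 or 3). Unstimulated, it was higher by 0.96 (adjusted p = 0.0339, lost without any 1 library of the pair). SLC17A7, the vesicular glutamate carrier VGLUT1, averaged 21.2 ± 1.96 CPM in NIC1 and 10.4 ± 3.64 CPM in DNMAML cells with IL-4, and 23.5 ± 1.65 and 12.8 ± 2.52 CPM unstimulated (SD, n = 3 each). Its differences of 1.03 and 0.87 had adjusted p of 0.0526 and 0.0983 without the block, and 0.00234 and 0.00616 with it.

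Of the amino acid carriers, the glutamine importer SLC38A1 had 571, 515 and 537 CPM in NIC1 cells with IL-4, against 451, 418 and 416 CPM in DNMAML cells and 478, 445 and 470 CPM in IRES cells. Unstimulated, it had 591, 571 and 528 CPM in NIC1, 448, 429 and 456 CPM in DNMAML and 493, 465 and 508 CPM in IRES cells. The NIC1 libraries were the highest in each condition. The difference between NIC1 and DNMAML cells was 0.34 ± 0.07 (SE, log2) in both conditions, with adjusted p of 0.0195 unstimulated and 0.0227 with IL-4. Either call was kept in 1 of 6 leave-outs, which set the pairing by experiment aside: without NIC1 library 3 unstimulated, and without NIC1 library 2 with IL-4. With the block SLC38A1 was called in all 4 comparisons of NIC1 with the other constructs. SLC7A11, described above for IL-4, was higher in NIC1 than DNMAML cells with IL-4 by 0.73 (adjusted p = 0.0368, lost in each of 6 leave-outs) and differed by 0.54 unstimulated (adjusted p = 0.132, and 0.00678 with the block). The GABA carrier SLC6A13 differed by 0.81 with IL-4 and 1.02 unstimulated (adjusted p = 0.159 and 0.0552, and 0.0223 and 0.0045 with the block). It averaged under 5 CPM in DNMAML cells of both conditions and in IRES cells with IL-4. SLC6A13 thus met the level rule through its other groups, NIC1 among them, and these values do not count as support.

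The hexose carriers SLC2A6 and SLC2A5 were lower in NIC1 than DNMAML cells, SLC2A5 only in the fit with the block. SLC2A6, the lysosomal glucose transporter GLUT6, had 6.16, 5.10 and 5.92 CPM in unstimulated NIC1 cells, against 13.7, 10.1 and 13.7 CPM in DNMAML cells and 10.5, 6.35 and 7.17 CPM in IRES cells. It was lower in NIC1 than DNMAML cells by 1.13 ± 0.20 (SE, log2, adjusted p = 0.00816), a call kept in every leave-out. With IL-4 it averaged 6.44, 11.2 and 8.10 CPM in NIC1, DNMAML and IRES cells, and the log2 difference between NIC1 and DNMAML cells was -0.80 (adjusted p = 0.0518, and 0.000264 with the block). SLC2A5, the fructose transporter GLUT5, had 2.27, 0.881 and 2.01 CPM in NIC1 cells with IL-4, against 17, 4.03 and 10.2 CPM in DNMAML cells and 10.5, 2.86 and 3.79 CPM in IRES cells. Unstimulated, it had 3.80, 1.67 and 4.64 CPM in NIC1 cells, 20.6, 6.52 and 13.6 CPM in DNMAML cells and 16.3, 4.62 and 8.11 CPM in IRES cells. Experiment 2 was the lowest in each group, and within each experiment NIC1 was the lowest construct. The log2 difference between NIC1 and DNMAML cells was -2.59 with IL-4 and -2.01 unstimulated, with adjusted p of 0.106 and 0.177 without the block and 5.51e-07 and 2.58e-06 with it. Both NIC1 groups averaged under 5 CPM, so the gene met the level rule through the other constructs, and these values do not count as support.

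Among nucleoside carriers, SLC29A1 (ENT1) had 51.4, 38.6 and 47.2 CPM in NIC1 cells with IL-4, against 92.8, 60.5 and 68.2 CPM in DNMAML cells and 73.2, 52.8 and 58.1 CPM in IRES cells. It was lower in NIC1 than DNMAML cells in 3 of 3 experiments in each condition, by 0.69 with IL-4 and 0.78 unstimulated (adjusted p = 0.106 and 0.0575, and 3.49e-06 and 1.11e-06 with the block). SLC35B2, which brings the sulfate donor PAPS into the Golgi, averaged 75.0 ± 2.43 CPM in NIC1 and 93.1 ± 5.27 CPM in DNMAML cells with IL-4 and was lower by 0.31 (adjusted p = 0.0304, kept only without DNMAML library 2). Without the 2 libraries that stood apart, 1 of the 6 members called with IL-4, SLC12A8, remained called (adjusted p = 0.00294), and SLC30A3 unstimulated was lost (adjusted p = 0.0585).

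With the block, 10 members were called in all 4 comparisons of NIC1 with the other constructs, among them SLC38A1, SLC20A1, SLC29A1, SLC43A3, SLC2A4RG, SLC35G2, SLC12A8 and SLC16A6. SLC2A5 is also counted there, but it met the level rule through the other constructs and is no support. The comparisons share the NIC1 libraries, and the share of all tested genes called in all 4 is not given here. SLC20A1 was higher in NIC1 than DNMAML cells by 0.61 with IL-4 and 0.78 unstimulated. SLC12A7, a potassium-chloride exporter, averaged 6.68 CPM in NIC1 and 11.1 CPM in DNMAML cells unstimulated and was lower with the block by 0.75 (adjusted p = 0.00232). SLC22A31, named for the organic cation carriers, was lower in NIC1 than DNMAML cells by 0.74 with IL-4 (adjusted p = 0.0308 with the block). SLC35F2, of the nucleotide sugar carrier superfamily, was lower in unstimulated NIC1 than IRES cells by 0.25 (adjusted p = 0.0376 with the block). In all, 9 members were higher and 6 lower in unstimulated NIC1 than IRES cells with the block (background 3.44% and 1.94%), and 14 higher and 3 lower with IL-4 (background 3.77% and 1.67%).

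DNMAML and IRES cells were not told apart in these genes. 0 of 188 members passed edgeR's test unstimulated or with IL-4, where 0% of all tested genes passed, 7 and 5 members had an unadjusted p under 0.05, and DESeq2 called 0 in both. With the block SLC2A6 was higher in unstimulated DNMAML than IRES cells by 0.65 on the log2 scale (adjusted p = 0.0493, background 0.146%), and 0 members passed with IL-4 (background 0.0931%). Log2 differences over the members ran from -0.58 to 0.65 unstimulated and from -0.53 to 0.86 with IL-4.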

How the data were processed

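RNA of 18 THP-1 libraries was measured by sequencing after TruSeq library preparation, per the labels' protocols. The authors deposited whole-number counts of reads per gene, made with HISAT2 and HTSeq on GRCh38.p12 after FastQC and Trimmomatic, per the submitters' processing notes, which also name DESeq2. Versions, annotation release and strand setting: not given in the sources used here, so reads of overlapping and antisense genes cannot be told apart. Entries that name no gene (23.8% to 30.9% of reads) stayed out of library sizes and tests.

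Symbols came from a name table and biotypes, coordinates (1-based) and exon lengths from GENCODE release 29. Results of 2 members are not reported here. Members and lists were chosen with earlier results of these data known. Genes kept by filterByExpr (15037) were scaled by TMM, and levels are CPM on that scale, except the mean CPM of the choice, which is unscaled. Tests were edgeR 4.0.16 quasi-likelihood F tests (robust) in 1 model of 6 group means, with 11 contrasts and Benjamini-Hochberg adjustment over all genes, checked on simulated data. Background shares are over all 15037 tested genes unless stated, of which 11124 were at 5 CPM or more, the level asked of members. The genes named are those called without the block, with the most changed of those called with it, and the leading genes by level. Same-numbered libraries deviated together (r from 0.21 to 0.76 over 45 pairs, all 18 libraries nearest their own number) and the labels give every group the same numbers, so the experiment numbers pair the libraries. Alternatives were that block, a block for each construct and number, DESeq2 1.42.0, its size factors, no filter, the groups compared alone, and leaving out each library or the 2 that stood apart. Apart from the block fits, all alternatives, the leave-outs included, set the pairing by experiment aside.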

Additional observations from a re-analysis of the deposited data

How the results depend on the processing

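The numbers of members called by edgeR's quasi-likelihood test depended on how the spread was estimated more than on scaling, and the log2 values of the members named kept their sign in all settings run. With the experiment as a replicate block the count was 39, 40 and 38 for the IL-4 responses of NIC1, DNMAML and IRES cells, against 12, 15 and 11 without it. In the same fit it was 45 and 48 for NIC1 against DNMAML cells unstimulated and with IL-4 (4 and 6 without the block), 15 and 17 for NIC1 against IRES cells (1 and 1), and 1 and 0 for DNMAML against IRES cells (0 and 0). A block for each construct and number gave 51, 59 and 62 for the IL-4 responses of NIC1, DNMAML and IRES cells. Fitting only the groups compared gave 10, 8 and 5 for those responses, 1 and 2 for NIC1 against DNMAML cells unstimulated and with IL-4, and 0 and 0 for NIC1 against IRES cells. In that fit SLC7A5 and SLC7A11 missed the threshold in IRES cells (adjusted p = 0.0979 and 0.148). DESeq2 gave 14, 18 and 15 for the IL-4 responses, 10 and 12 for NIC1 against DNMAML cells, and 2 and 1 for NIC1 against IRES cells. Without the 2 libraries that stood apart the counts were 11, 10 and 9 for the responses, 3 and 1 for NIC1 against DNMAML cells, and 0 and 1 for NIC1 against IRES cells. Leaving out 1 library at a time gave 9 to 11, 9 to 12 and 9 to 12 for the IL-4 responses of NIC1, DNMAML and IRES cells, where 9 in DNMAML cells came without unstimulated library 3. It gave 2 to 4 for NIC1 against DNMAML cells unstimulated, 1 to 5 with IL-4, where 1 came without DNMAML library 1 or 3, and 0 to 1 for NIC1 against IRES cells. The cause of these changes was not tested. DESeq2's size factors within edgeR gave 12, 14 and 11 for the responses, and no filter on low counts gave 12, 13 and 12. The set would hold 210 genes at a minimum of 2 CPM and 166 at 10 CPM. Gene counts of 12410668 to 15099788 per library limit the precision of members at low levels.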

Other observations

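Of the protein-coding SLC genes under 5 CPM, 39 were tested, and 2 of them were called by edgeR's quasi-likelihood test in an IL-4 response. SLC26A9, a chloride channel and exchanger of epithelia, had 3.00, 3.34 and 2.18 CPM with IL-4 in DNMAML cells, against 0.866, 1.17 and 0.602 CPM unstimulated. It rose by 1.67 in DNMAML cells (adjusted p = 0.00307, kept in all 6 leave-outs) and by 1.28 in NIC1 cells (adjusted p = 0.0241, kept in 3 of 6), with 1.00 in IRES cells (adjusted p = 0.0863). SLC28A3, the concentrative nucleoside carrier CNT3, had 3.75, 5.12 and 3.66 CPM with IL-4 in DNMAML cells, against 1.47, 1.76 and 1.88 CPM unstimulated. Its changes were 1.29 in DNMAML and 1.24 in IRES cells (adjusted p = 0.0174 and 0.0234, each kept in 2 of 6 leave-outs), and 0.89 in NIC1 cells (adjusted p = 0.139).

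Among carriers and partners whose symbols do not start with SLC and a digit, SLCO2B1, an organic anion transporter, was higher in NIC1 than DNMAML cells. The difference was 1.51 with IL-4 (adjusted p = 0.0182) and 1.24 in unstimulated cells (adjusted p = 0.0471). EMB, the ancillary protein of monocarboxylate carriers, changed with IL-4 by 0.77 in NIC1, 0.48 in DNMAML and 0.66 in IRES cells, with quasi-likelihood adjusted p of 0.00299, 0.0731 and 0.0107 (DNMAML with the block 0.00132). It averaged 57.9, 48.2 and 52.7 CPM with IL-4 in NIC1, DNMAML and IRES cells, against 33.9, 34.4 and 33.5 CPM unstimulated, and its response did not pass a test of difference between constructs.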
